A study of Mus musculus with 14 samples.

Results

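Pou5f1, Sox2, Klf4, Myc and Mycn were read by 8 probe sets on the array, out of 45101. A probe set is a group of short oligonucleotides that together report 1 transcript or part of it. The 8 were chosen by gene symbol in the platform annotation: 1 each for Pou5f1, Sox2 and Myc, 2 for Klf4 and 3 for Mycn. Each is described separately, because probe sets of 1 gene can read different parts of its transcripts. All 8 passed the filter on dim probe sets, as did 26371 in all.

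Pou5f1 encodes Oct4, a POU-domain factor that binds DNA together with Sox2, a factor with an HMG box, to maintain pluripotency. Klf4 is a zinc finger factor of naive pluripotent cells that fibroblasts also express. Myc and Mycn are close paralogs that bind E-boxes with Max and act on growth and cell division; Mycn can stand in for Myc in reprogramming. Introduced together, factors of these families turn fibroblasts into induced pluripotent stem cells (iPSCs), and the retroviral copies are usually silenced once the cell's own pluripotency genes are active.

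The series held 14 mouse cell samples with 1 expression array each. Partial iPSCs, cells that began to reprogram and stopped short of pluripotency, were of clones 2B1 and 5C5 (female, C57BL/6), kept with serum and leukemia inhibitory factor (LIF) without further treatment. Each clone was also converted under 2i, which is culture with MEK and GSK3 inhibitors, and these are called 2i iPSCs. Embryonic stem cells (ESCs), grown with LIF and serum, were of a Nanog-GFP line (male, C57BL/6) and of EBRTcH3 (male, 129sv). Mouse embryonic fibroblasts (MEFs; mixed sex, C57BL/6, Nanog-GFP) were grown without LIF; the embryos are put at 12.5 dpc in the sample title but at 13.5 dpc in the series text. The remaining 7 arrays were of 2B1 partial iPSCs in LIF and serum carrying an empty vector, Cnot1, Cnot2, Cnot3, Trim28, the 3 Cnot genes together (Cnot1,2,3) or Nanog. The series text calls the empty vector and Nanog cells stable integrants and describes the others as infected with retrovirus. Which factors had been used to make the partial iPSCs is not given in the sources used here. Every transduced array comes from the 2B1 clone, and each line or clone gave 1 array per condition.

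Values are log2 RMA signal, on which a difference of 1 is a doubling. The 7 transduced arrays had medians of 5.30 to 5.36 and the other 7 arrays medians of 5.47 to 5.55; the sets were treated as separately normalized and compared only where this is said. Signals of 3.55 to 3.89 marked the 25th percentile of an array, and the brightest probe set of an array lay between 14.50 and 14.69. Naive pluripotency markers (8 genes) averaged 5.06 and 5.24 in partial iPSCs and 5.27 in MEFs, against 10.69 to 11.35 in 2i iPSCs and ESCs. Fibroblast markers (8 genes) averaged 12.74 in MEFs, 8.93 and 9.27 in partial iPSCs, 9.94 and 10.05 in 2i iPSCs, with ESCs lowest at 4.65 and 4.76. Introduced genes were not visibly raised by their own probe sets: on the arrays labelled with them, Cnot2 differed from the empty vector by -0.59 to 0.30, Cnot3 by 0.03 to 0.30, Trim28 by -0.33 and -0.01 and Nanog by -0.99, and Cnot1 had no probe set of its own in the annotation. Where those probes lie relative to the introduced cDNA is not known here, so the labels of the transduced arrays could not be checked, and "array labelled" is used below.

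**Figure D1:**
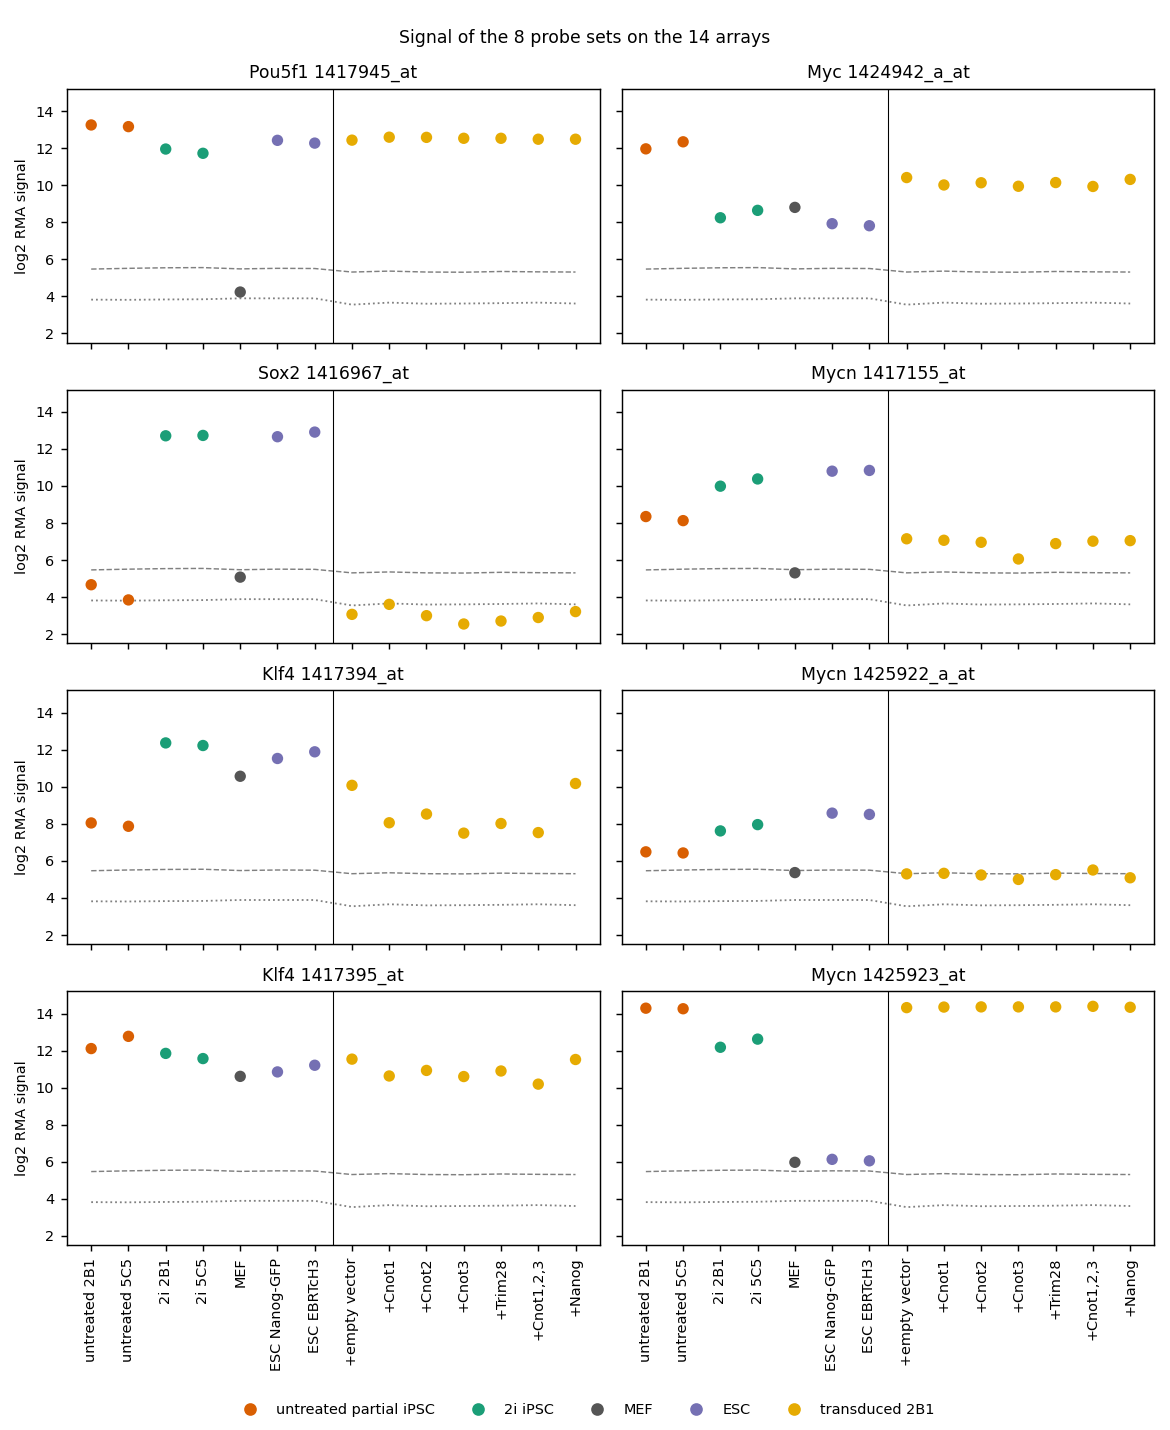
Log2 RMA signal (y axis) of each of the 8 probe sets on each of the 14 arrays (x axis); dashed and dotted lines mark the median and the 25th percentile of each array, and the vertical line separates the 2 normalization sets. Sox2 is high on the 4 arrays of 2i iPSCs and ESCs. Mycn 1425923_at is high on all arrays of partial and 2i cells and near the array median in MEFs and ESCs.

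Oct4 mRNA was abundant in all cells of the series other than fibroblasts. The Pou5f1 probe set, 1417945_at (gene on chromosome 17), read 13.25 in untreated 2B1 and 13.16 in untreated 5C5. It read 11.95 and 11.72 in the 2i iPSCs of 2B1 and 5C5, and 12.42 and 12.27 in the Nanog-GFP and EBRTcH3 ESCs. The MEF array read 4.23. Both partial clones thus lay above every 2i and ESC array, and MEFs lay far below all 6. Under 2i the level fell (log2 fold change -1.36, SE 0.19, 2.57-fold lower, limma with Benjamini-Hochberg adjustment, adjusted p = 0.0267). It was also lower in ESCs than in partial iPSCs (-0.86, SE 0.19, adjusted p = 0.0443). Between 2i iPSCs and ESCs the difference of -0.51 was not called (95% interval -0.99 to -0.03, adjusted p = 0.298). The order of means was therefore partial iPSCs, ESCs, 2i iPSCs, MEFs, with the middle neighbours not separated by the test. Both calls were near the threshold. The call under 2i was lost with the clone as a replicate block (adjusted p = 0.0704), without untreated 2B1 (0.0857), untreated 5C5 (0.0795), 2i 2B1 (0.202) or 2i 5C5 (0.245). The call in ESCs was lost with the block (0.0931), with the 4 compared arrays alone (0.129) and without any 1 of the 6 arrays (0.056 to 0.139).

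Sox2 showed the opposite pattern. Its probe set, 1416967_at (chromosome 3), read 4.67 in untreated 2B1 and 3.85 in untreated 5C5, at the 39.2 and 25.8 percentiles of their arrays. The 2i iPSCs read 12.71 and 12.73, the ESCs 12.66 and 12.91, and MEFs 5.08. The partial clones thus sat with the fibroblasts in the lower part of their arrays, while the 2i and ESC arrays all lay above 12.6 and overlapped. Sox2 rose under 2i by 8.46 (SE 0.31, adjusted p = 0.00116), the third highest change of the 26371 tested, and was higher in ESCs by 8.52 (SE 0.31, adjusted p = 0.000664); since the lower level is near background, the fold is limited by it. Both calls held under all 12 alternatives. Some of these overlap, since leaving out an array of the group not compared repeats the fit of the 4 compared arrays. For 2i iPSCs against ESCs the difference was -0.06, with a 95% interval of -0.85 to 0.72 (adjusted p = 0.946). Oct4 and Sox2 act as partners on DNA. In the partial clones the Pou5f1 probe set was at the 99.4 percentile of both arrays, and the Sox2 probe set at or below the 39.2 percentile. Each gene had 1 probe set, protein was not measured, and whether either probe set read an introduced copy was not tested.

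The Klf4 probe sets (chromosome 4) disagreed, although the annotation bases both on the same GenBank sequence. Probe set 1417394_at read 8.05 and 7.87 in untreated 2B1 and 5C5, 12.37 and 12.23 in 2i iPSCs, 11.53 and 11.89 in ESCs, and 10.57 in MEFs. It was thus lowest in the partial clones and highest in 2i iPSCs. It rose under 2i by 4.34 (SE 0.21, adjusted p = 0.00198) and was higher in ESCs than in partial iPSCs by 3.75 (SE 0.21, adjusted p = 0.00153). Leaving out 2i 2B1 or 2i 5C5 brought the first adjusted p to 0.0503 and 0.0519, and the ESC call held under all 12 alternatives. Probe set 1417395_at read 12.11 and 12.77 in untreated 2B1 and 5C5, 11.85 and 11.57 in 2i iPSCs, 10.85 and 11.21 in ESCs, and 10.61 in MEFs. By this probe set the partial clones were the highest of the 7 arrays, not the lowest. Its change under 2i was not called (-0.73, 95% interval -1.49 to 0.02, adjusted p = 0.229), and was -0.26 in 2B1 and -1.21 in 5C5. It was lower in ESCs than in the partial clones (-1.41, SE 0.30, adjusted p = 0.039), a call lost with the block (adjusted p = 0.0802), with the 4 arrays alone (0.106), and without untreated 5C5 (0.0999), either 2i array (0.106), Nanog-GFP (0.0852) or EBRTcH3 (0.0556). Between 2i iPSCs and ESCs neither probe set was called (0.59, adjusted p = 0.284, and 0.68, adjusted p = 0.365).

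Myc, read by the single probe set 1424942_a_at (chromosome 15), was highest in partial iPSCs. It read 11.96 and 12.34 in untreated 2B1 and 5C5, 8.24 and 8.64 in 2i iPSCs, 7.92 and 7.81 in ESCs, and 8.80 in MEFs. The partial clones lay above every other array of that set, of which MEFs came nearest, at -3.17 and -3.55 from 2B1 and 5C5. Myc fell under 2i (log2 fold change -3.71, SE 0.24, adjusted p = 0.00506), by -3.72 in 2B1 and -3.71 in 5C5. It was lower in ESCs than in partial iPSCs (-4.29, SE 0.24, adjusted p = 0.00153), a call that held under all 12 alternatives. The call under 2i was lost without 2i 2B1 (adjusted p = 0.0728) or without 2i 5C5 (0.0673). Between 2i iPSCs and ESCs the difference of 0.57 was not called (95% interval -0.03 to 1.18, adjusted p = 0.347).

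Mycn (chromosome 12) gave 2 patterns from 3 probe sets. Probe set 1425923_at read 14.29 and 14.26 in untreated 2B1 and 5C5, where only 17 and 21 of the 45101 probe sets were brighter. It read 12.18 and 12.62 in 2i iPSCs, but 6.13 and 6.05 in ESCs and 5.97 in MEFs. The 2i iPSCs therefore sat with neither end, and ESCs sat with the fibroblasts, near the middle of their arrays (55.9 to 57.8 percentile). This probe set fell under 2i (log2 fold change -1.87, SE 0.22, adjusted p = 0.0182), was lower in ESCs than in partial iPSCs (-8.19, SE 0.22, adjusted p = 0.000366) and was higher in 2i iPSCs than in ESCs by 6.31 (SE 0.22, adjusted p = 0.00165). The last was the only one of the 8 probe sets called between 2i iPSCs and ESCs, and it was lost without 2i 2B1 (adjusted p = 0.0539) or 2i 5C5 (0.0614).

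The other Mycn probe sets rose where that one fell. Probe set 1417155_at read 8.35 and 8.13 in untreated 2B1 and 5C5, 9.99 and 10.38 in 2i iPSCs, 10.80 and 10.84 in ESCs, and 5.31 in MEFs. Probe set 1425922_a_at, whose suffix marks probes shared by alternative transcripts of 1 gene, read 6.49 and 6.43, then 7.62 and 7.96, then 8.58 and 8.51, and 5.37 in MEFs, in the same order of cells. For both, the order of means was ESCs, 2i iPSCs, partial iPSCs and the single MEF array, with ESCs and 2i iPSCs not separated by the test. The rise under 2i was 1.95 (SE 0.22, adjusted p = 0.0164) for 1417155_at and 1.33 (SE 0.20, adjusted p = 0.0324) for 1425922_a_at. In ESCs against partial iPSCs they were higher by 2.58 (SE 0.22, adjusted p = 0.00341) and 2.08 (SE 0.20, adjusted p = 0.00486), calls that held under all 12 alternatives. The differences between 2i iPSCs and ESCs were -0.64 and -0.76 and were not called (adjusted p = 0.26 and 0.16). The annotation bases 1425922_a_at and 1425923_at, which went opposite ways, on the same GenBank sequence. All 3 calls of Mycn under 2i were lost with the clone as a replicate block (adjusted p = 0.0526 to 0.0817), without untreated 2B1 (0.0509 to 0.0913), untreated 5C5 (0.0618 to 0.1), 2i 2B1 (0.132 to 0.193) or 2i 5C5 (0.121 to 0.264).

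**Figure D2:**
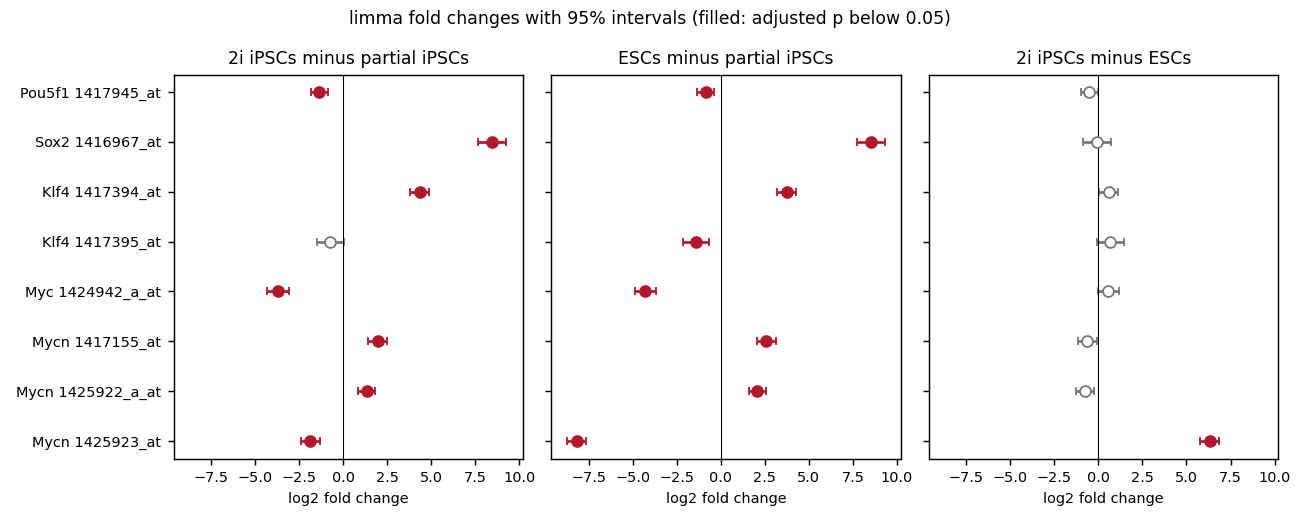
Limma log2 fold change (x axis) of each probe set (y axis) in 3 comparisons of 2 arrays against 2, with 95% intervals of the model; filled points have an adjusted p below 0.05. Between 2i iPSCs and ESCs, Mycn 1425923_at stands at 6.31 and the other 7 probe sets lie between -0.76 and 0.68.

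In total, 7 of the 8 probe sets were called in 2i iPSCs against partial iPSCs, 4 higher and 3 lower, where 4.72 percent of all tested probe sets were called (2.51 percent higher and 2.21 percent lower). All 8 were called in ESCs against partial iPSCs, 4 higher and 4 lower, where 13.4 percent of all were (5.21 percent higher and 8.22 percent lower). A single one was called in 2i iPSCs against ESCs, as higher, where 2.92 percent of all were (2.76 percent higher and 0.152 percent lower). The first count was 3 with the clone as a replicate block and without untreated 2B1 or untreated 5C5, in each case Sox2, Klf4 1417394_at and Myc. It was 1, Sox2, without 2i 2B1 or without 2i 5C5. The partial iPSC arrays serve in both of the first comparisons, so these counts share samples. The 2i iPSCs differed from the untreated clones in both culture and conversion, which cannot be told apart. Both clones were female and both ESC lines male, so sex and cell type cannot be told apart either.

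Whether probe sets of 1 gene changed by unequal amounts was tested on their difference within each array, over all 16695 pairs of tested probe sets that share a gene. For Klf4, 1417394_at minus 1417395_at was -4.07 and -4.90 in untreated 2B1 and 5C5, 0.52 and 0.66 in 2i iPSCs, 0.68 in both ESC lines and -0.03 in MEFs. The partial clones thus stood apart from the other 5 arrays, which lay between -0.03 and 0.68. The shift under 2i was 5.07 (SE 0.29, limma adjusted p = 0.0336), the sixth largest of all pairs. In ESCs it was 5.16 (SE 0.29, adjusted p = 0.00788), and between 2i iPSCs and ESCs it was -0.09 (SE 0.29, adjusted p = 0.948).

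For Mycn, 1417155_at minus 1425923_at was -5.94 and -6.13 in untreated 2B1 and 5C5, -2.19 and -2.25 in 2i iPSCs, 4.67 and 4.79 in ESCs, and -0.66 in MEFs. Here the 2i iPSCs lay between the partial iPSCs and the ESCs, whereas for Klf4 they lay beside the ESCs. The shift was 3.82 under 2i (SE 0.14, adjusted p = 0.00821), 10.77 in ESCs against partial iPSCs (SE 0.14, adjusted p = 8.6e-05) and -6.95 in 2i iPSCs against ESCs (SE 0.14, adjusted p = 0.000729). Among shifts in ESCs against partial iPSCs it was the largest of the 16695 pairs, and the second was 1425922_a_at minus 1425923_at (10.27, SE 0.12), which shares a probe set with it. The pair 1417155_at and 1425922_a_at was called in none of the 3 comparisons (0.62, 0.50 and 0.12, adjusted p = 0.19, 0.149 and 0.806). Of the 4 pairs of Klf4 and Mycn, 3, 3 and 2 were called in the 3 comparisons, against 0.0779, 2.58 and 0.833 percent of all pairs. The called Mycn pairs all contain 1425923_at, so they are not independent counts.

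On the 7 transduced arrays, the Klf4 difference ran from -3.10 (labelled Cnot3) to -1.34 (labelled Nanog), and that of Mycn 1417155_at minus 1425923_at from -8.29 (labelled Cnot3) to -7.18 (empty vector).

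Opposite calls within a gene were rare in these arrays. Under 2i, 2 of 16695 pairs (0.012 percent) had 1 probe set called higher and the other lower, and both were Mycn pairs. There were 3 such pairs in ESCs against partial iPSCs (0.018 percent), 2 of Mycn and 1 of Klf4. The comparison of 2i iPSCs with ESCs had 0 pairs with opposite limma calls, and 5 without Nanog-GFP, none of them of Klf4 or Mycn. The opposite calls under 2i, and the 3 called pair shifts under 2i, were all lost with the clone as a replicate block (pair adjusted p = 0.0833 to 0.132) and without untreated 2B1, untreated 5C5, 2i 2B1 or 2i 5C5 (0.0607 to 0.457). Both Mycn pair shifts in ESCs against partial iPSCs were called under all 11 alternatives. The Klf4 pair shift was lost with the 4 arrays alone and without either 2i array (adjusted p = 0.0633). The opposite Klf4 calls there, which rest on the call of 1417395_at, were lost with the block, with the 4 arrays alone and without untreated 5C5, either 2i array or either ESC array. Opposite calls there numbered 11 without Nanog-GFP, 2 of them of Mycn. The Mycn pair shifts between 2i iPSCs and ESCs were lost without 2i 2B1 or 2i 5C5 (0.0655 and 0.0675). The position of the probes within the transcripts was not analysed here, and whether a probe set read an introduced copy, the cell's own gene or both was not tested.

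**Figure D3:**
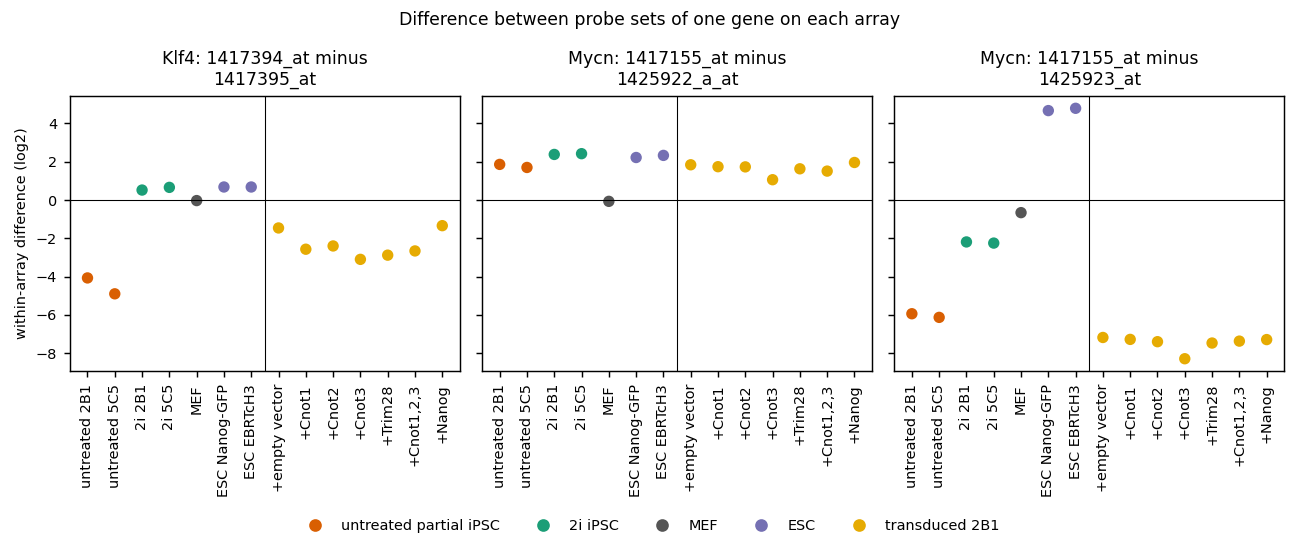
Within-array log2 difference (y axis) between probe sets of Klf4 and of Mycn on the 14 arrays (x axis); the vertical line separates the normalization sets. The Klf4 difference is -4.07 and -4.90 in the untreated clones and 0.52 to 0.68 in 2i iPSCs and ESCs, while the right-hand Mycn difference runs from -6.13 in untreated 5C5 to 4.79 in EBRTcH3 within the first set.

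Fibroblasts, with 1 array and so without a test, differed from the partial iPSCs at most of these probe sets. Here 6 of the 8 probe sets were at least 1 (log2) below both untreated partial arrays and 1 was above both, where 11.1 and 8.51 percent of tested probe sets were. The one above was Klf4 1417394_at, by 2.52 and 2.70 over 2B1 and 5C5, and Sox2 was within 1.23 of both. Pou5f1 differed by -9.01 and -8.92, and Mycn 1425923_at by -8.32 and -8.29. Without untreated 2B1, Sox2 also counted as above, which made 8 in all. Below both 2i arrays were 6 (15 percent of all), all but Klf4 1417395_at and Myc, and 0 were above both (11.2 percent). Set against ESCs, 4 of the 8 were at least 1 below both arrays (14.5 percent of all) and 0 above both (13.7 percent). The 4 were Pou5f1, Sox2 and the Mycn probe sets 1417155_at and 1425922_a_at. Mycn 1425923_at differed from the ESC arrays by only -0.16 and -0.08, Klf4 1417395_at by -0.25 and -0.60, and Myc by 0.87 and 0.99. Fibroblasts and ESCs thus stood far apart at Pou5f1, Sox2 and those Mycn probe sets, and close together at the third Mycn probe set.

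Over the 7 transduced 2B1 arrays, 4 of the 8 probe sets had a range below the median range of all tested probe sets (0.62) and 4 above it, and Klf4 varied most. Pou5f1 ranged from 12.43 to 12.59 over the 7 arrays and Mycn 1425923_at from 14.32 to 14.39. Their ranges of 0.16 and 0.07 compare with a median range of 0.34 for the 735 probe sets with a mean of 12 or more; Mycn 1425923_at was close to the brightest value of its arrays, with 2 to 10 probe sets brighter. Sox2 stayed between 2.55 and 3.61, at or below the 24.0 percentile on each. Its range was 1.06, and that of Mycn 1417155_at, from 6.06 to 7.15, was 1.08. Myc ranged from 9.93 to 10.41 and Mycn 1425922_a_at from 5.00 to 5.51. None of the arrays, the one labelled Nanog included, had Sox2 near its level in 2i iPSCs or ESCs.

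Klf4 1417394_at read 10.08 with the empty vector and 10.18 on the array labelled Nanog. It read 8.06, 8.53 and 7.50 on the arrays labelled Cnot1, Cnot2 and Cnot3, 8.02 on that labelled Trim28 and 7.53 on that labelled Cnot1,2,3. These 5 arrays lay together, 1.55 or more below the empty vector, and did not overlap with the other 2. The differences from the empty vector were -2.02, -1.55, -2.58, -2.06 and -2.55 in that order, and 0.10 for Nanog. Counted from the lowest of 26371 differences on each array, these ranked 376, 360, 73, 14 and 303 in the same order. Klf4 1417395_at, which read 11.54 with the empty vector and 11.52 with Nanog, was lower on the same 5 arrays by smaller amounts, -0.91, -0.61, -0.94, -0.64 and -1.34. The 2 Klf4 probe sets thus moved in the same direction here, unlike in ESCs against partial iPSCs, where they were called in opposite directions. The 5 arrays with lower values are those the series text describes as retrovirus infected, and the other 2 those it calls stable integrants, so the introduced factor and the way the cells were made cannot be told apart, and all 6 differences share the single empty vector array.

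At a log2 difference of 1 or more from the empty vector, 7 of 48 values (8 probe sets on 6 arrays) were lower and 0 higher. They were Klf4 1417394_at on all 5 of those arrays, Klf4 1417395_at on the array labelled Cnot1,2,3, and Mycn 1417155_at on that labelled Cnot3 (6.06 against 7.15, or -1.08). That is 1 of 8 lower for Cnot1, where 5.07 percent of tested probe sets were, 1 for Cnot2 (3.18 percent), 2 for Cnot3 (4.4 percent), 1 for Trim28 (1.35 percent), 2 for Cnot1,2,3 (7.22 percent) and 0 for Nanog (0.774 percent). Shares of all tested probe sets that were higher were 3.74, 2.62, 2.27, 0.884, 3.52 and 0.413 percent in that order. Fibroblast markers averaged 7.02 with the empty vector, 7.21 to 7.36 on the arrays labelled with 1 Cnot gene or Trim28, 7.26 with Nanog and 7.92 with Cnot1,2,3; their part in these differences was not tested.

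**Figure D4:**
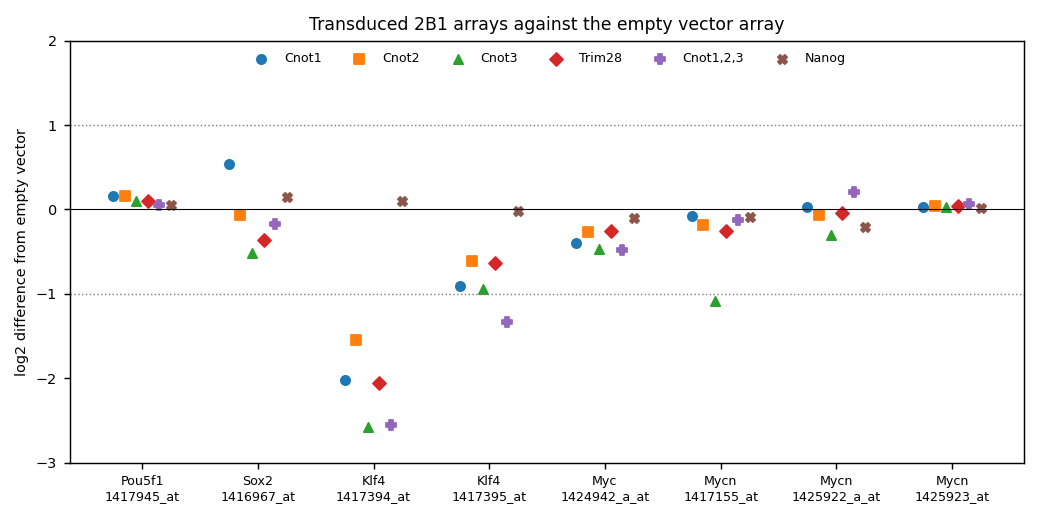
Log2 difference from the empty vector array (y axis) for the 8 probe sets (x axis) on the 6 other transduced arrays, 1 array per symbol; dotted lines mark 1 and -1. Klf4 1417394_at lies between -1.55 and -2.58 on 5 arrays and at 0.10 on the array labelled Nanog.

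Across the separately normalized sets, the empty vector array can be put beside untreated 2B1 only with caution. The differences, empty vector minus untreated 2B1, were 2.03 for Klf4 1417394_at but -0.58 for Klf4 1417395_at. They were -0.82 for Pou5f1, -1.56 for Myc, -1.60 for Sox2, and -1.20, -1.19 and 0.04 for Mycn 1417155_at, 1425922_a_at and 1425923_at. The median over tested probe sets was -0.22, and 17.2 percent were at least 1 apart. After quantile normalization over all 14 arrays the difference was 2.29 for Klf4 1417394_at, -0.36 for Klf4 1417395_at and -1.36 for Myc. On the arrays labelled Cnot1, Cnot2, Cnot3, Trim28 and Cnot1,2,3, Klf4 1417394_at (7.50 to 8.53) was nearer to untreated 2B1 (8.05) than to the empty vector. Klf4 1417395_at (10.19 to 10.93) was the reverse on these arrays, nearer to the empty vector (11.54) than to untreated 2B1 (12.11).

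Profiles over all 14 arrays, centred within each set, were compared by their root mean square distance in log2 units. The profiles nearest to Sox2 were of Dppa5a (0.40) and Mageb16 (0.42), and those nearest to Pou5f1 of Fbxo15 (0.55), a gene expressed in ESCs, and 1700019D03Rik (0.61). Nearest to Myc were St3gal6 (0.35), a sialyltransferase, and Pkp1 (0.38), a desmosome protein. Nearest to Klf4 1417394_at were B3gnt5 (0.57) and Sh3d19 (0.73), and to Klf4 1417395_at Dtd1 (0.19) and Kif21a (0.23). Mycn 1417155_at was nearest to Mtf2 (0.31), a Polycomb-associated protein, and Taf7 (0.34), and Mycn 1425922_a_at to another probe set of Mtf2 (0.18) and to Sub1 (0.19). For Mycn 1425923_at the nearest were 2 probe sets of H2-D1 (0.99 and 1.05), an MHC class I gene with close relatives, and these distances exceeded those named for the other 7 probe sets. Seen from 1417155_at, the Mycn probe set 1425922_a_at ranked 78th of 26370 in closeness and 1425923_at 26281st. Seen from 1425922_a_at, which has more near profiles, 1417155_at ranked 2878th at the same distance (0.61). Seen from Klf4 1417394_at, the other Klf4 probe set ranked 20852nd, and the reverse rank was 25943.

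Relatives and targets of the 5 factors were taken from lists, with 1 probe set a gene. Of 8 listed targets of Oct4 and Sox2, 7 were tested. Under 2i 3 rose, Zfp42 (from a mean of 2.47 to 12.47, SE 0.27), Nanog (8.37, SE 0.30) and Lefty1 (3.37, SE 0.36), with a median of 1.35 over the list against -0.02 over all tested probe sets, and at an unadjusted p below 0.05 there were 4 higher and 0 lower. The other 4 were not called. In partial iPSCs and ESCs, Tdgf1 averaged 12.54 and 12.68, Fbxo15 11.83 and 12.21, Fgf4 9.93 and 11.13, and Utf1 8.27 and 10.77. These 4 read 3.74, 4.37, 3.05 and 6.62 in MEFs. The same 3 targets were called higher in ESCs than in partial iPSCs (Zfp42 10.16, Nanog 8.72, Lefty1 3.92), with a median of 2.5 against 0.01. At an unadjusted p below 0.05, 4 were higher there and 0 lower. Zfp42 and Nanog kept the call under 2i without each of the 6 arrays, and Lefty1 lost it without untreated 2B1, 2i 2B1 or 2i 5C5 (adjusted p up to 0.149).

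Among 13 tested relatives of Klf4, Klf2 (4.0, SE 0.44) and Klf5 (3.18, SE 0.55), which share roles with Klf4 in ESCs, rose under 2i. Limma called 0 lower, and at an unadjusted p below 0.05 there were 4 higher and 2 lower. Against partial iPSCs, ESCs had higher Klf2 (4.85) and Klf5 (2.44) and lower Klf7 (-2.18) and Klf6 (-1.38). The medians were 0.51 and 0.29. Klf2 and Klf5 lost the call under 2i with the clone as a replicate block and without untreated 2B1, untreated 5C5, 2i 2B1 or 2i 5C5 (adjusted p = 0.0502 to 0.278). In ESCs, Klf2 kept it without each array, and Klf5, Klf6 and Klf7 lost it with the block and without several arrays, either 2i array among them (adjusted p up to 0.136). Klf5 in both comparisons and Klf7 also lost the call with no filter on dim probe sets. Of 13 tested SOX genes, Sox11 (-2.39, SE 0.28) fell under 2i, with median -0.01. The limma calls in ESCs were Sox9 (-2.91, SE 0.26) and Sox11 (-1.93), both lower, with median -0.17 and 3 genes higher at an unadjusted p below 0.05. Sox9 was higher in 2i iPSCs than in ESCs (3.5, SE 0.26). Sox11 lost the call under 2i with the block and without any of the partial or 2i arrays (adjusted p up to 0.171), and in ESCs without either partial array (0.0561 and 0.0584). Sox9 lost the call against ESCs without 2i 2B1 or 2i 5C5 (0.0794 and 0.0922). Of 6 tested POU genes, 0 were called by limma in any comparison; 0, 2 and 0 had an unadjusted p below 0.05 under 2i, in ESCs against partial iPSCs, and in 2i iPSCs against ESCs, and the medians were -0.04, 0.10 and -0.09.

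In the network of Myc and Max, 11 genes were tested. Mxd4, whose product competes with Myc for Max, fell under 2i (-1.75, SE 0.17). At an unadjusted p below 0.05, 3 genes were higher and 3 lower, and Mxd4 was the only adjusted call. Mxd4 was also lower in ESCs than in partial iPSCs (-2.49, SE 0.17), where Mycl (2.51, SE 0.42), the third Myc paralog, and Mlxipl (1.6, SE 0.27) were higher. Max itself was not called (-0.12 and 0.50). The medians were -0.12 and 0.07. Mxd4 lost the call under 2i without 2i 2B1 or 2i 5C5 (adjusted p up to 0.164), and Mycl and Mlxipl lost theirs without several arrays, untreated 2B1 among them (up to 0.0883). Of 19 listed Myc targets, Srm (-1.3, SE 0.22), an enzyme of polyamine synthesis, and Ldha (-1.11, SE 0.20), lactate dehydrogenase, fell under 2i, with median -0.22. At an unadjusted p below 0.05, 7 were lower and 0 higher. Against partial iPSCs, ESCs had lower Ccnd2 (-5.28, SE 0.49), cyclin D2, and Ldha (-0.93), with median -0.11, and Ccnd2 was higher in 2i iPSCs than in ESCs (3.78, SE 0.49). Srm and Ldha lost the call under 2i with the block and without any of the 4 partial or 2i arrays (adjusted p = 0.0782 to 0.321). Ldha in ESCs lost it with the block and without each of the 6 arrays (up to 0.131), and Ccnd2 kept it in ESCs but lost it against 2i iPSCs with the block, with the 4 arrays alone and without any partial or 2i array (up to 0.22).

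Markers of other cells were read beside these results. Of 8 naive markers, of which Zfp42, Nanog and Klf2 are also in the lists above, 7 rose under 2i and 8 were higher in ESCs than in partial iPSCs. Without 2i 2B1 or 2i 5C5, Esrrb, Tbx3, Klf2 and Tfcp2l1 lost the call under 2i (adjusted p = 0.082 to 0.15), which left Zfp42, Nanog and Tcl1. Esrrb and Klf2 also lost it without untreated 2B1 or untreated 5C5, and Klf2 with the block. In ESCs Dppa3 lost its call with the 4 arrays alone and without any of the partial or 2i arrays (adjusted p up to 0.102). Of 8 fibroblast markers, Postn (1.96) and Col1a2 (1.5) rose under 2i, where 5 were higher and 1 lower at an unadjusted p below 0.05. Against the partial clones, 7 had lower levels in ESCs, of which Col1a1 lost its call with the 4 arrays alone and without any partial or 2i array. All 8 were higher in 2i iPSCs than in ESCs, the comparison in which Mycn 1425923_at was called. Postn and Col1a2 lost the call under 2i with the block and without any of the partial or 2i arrays (adjusted p up to 0.299), and the 8 calls between 2i iPSCs and ESCs were lost without 2i 2B1 or 2i 5C5 (0.0539 to 0.141). In MEFs, where the mean of these markers is highest, Mycn 1425923_at read 5.97 on the single array. Whether the signal of that probe set is related to these markers was not tested. Of 3 tested trophoblast and 4 tested endoderm markers, limma called 0 against partial iPSCs (at an unadjusted p below 0.05, 1 trophoblast gene was higher under 2i and 1 in ESCs, 4 endoderm genes were higher under 2i and 1 was lower in ESCs), and Afp (1.96) was higher in 2i iPSCs than in ESCs, a call lost without either 2i array (0.174 and 0.185).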

How the data were processed

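The deposited values are log2 probe set summaries of 14 arrays, made with RMA and the affy package per the submitters' processing notes; their versions, settings and any genome build were not given in those sources. After sorting, values spanned a median range of 0.085 and 0.096 within the 2 sets of 7 arrays and of 0.318 over all 14, so tests were made within a set. Precision is limited by how many arrays there are. Genes were named from the platform annotation (34945 probe sets with 1 gene, 932 with several, 9160 with none, 64 controls), with symbols updated by gene identifier through RefSeq (34754 matched; GRCm38.p6), which also gave chromosomes.

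Probe sets were tested if at least 2 of 14 arrays reached 5.42, the median of the table. The 3 groups with 2 arrays were fitted with limma 3.58.1 in R 4.3.3 (lmFit, eBayes, 6 arrays, two-sided, Benjamini-Hochberg over all 26371 probe sets or 16695 pairs, called below 0.05). The p-values rest on the spread between 2 clones or 2 lines, none of which was repeated. The pairing of untreated and 2i arrays comes from the clone; their deviations from the group means had a correlation of 0.12. For lists, the brightest probe set of a gene was used, and of the genes called the 2 highest and 2 lowest were named; a few genes not called were added after their values were seen. The model was also run on simulated data with independent normal noise and planted changes, which cannot test the spread between clones or lines. The members and lists were chosen with earlier results of these data known. Alternatives were no filter, quantile normalization, median centring (not for pairs, whose differences it cannot change), the clone as a block, the 4 compared arrays alone, an intensity trend, and leaving out each array. Leaving out an array of the group not compared gave the same fit as the 4 compared arrays alone, so these are not separate checks.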

Additional observations from a re-analysis of the deposited data

How the results depend on the processing

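Directions and calls of the 8 probe sets were the same without the filter, after quantile normalization, with arrays centred on the median and with an intensity trend, and the single-array counts for MEFs (7 of 8) and for transduced arrays (7 of 48) were the same after centring and quantile normalization. With the clone as a replicate block, 3 of the 8 probe sets were called under 2i in place of 7, and 0 of the 4 pairs in place of 3. Apart from the losses given with the results, the block changed no other call of the 8 probe sets, the 4 pairs or the listed genes. Over all probe sets, the block gave 396 calls in place of 1244 under 2i, 1984 in place of 3541 for ESCs against partial iPSCs, and 436 in place of 769 for 2i iPSCs against ESCs. With the 4 compared arrays alone there were 2300 under 2i and 1201 for ESCs against partial iPSCs. Over all pairs, the 3 comparisons in the same order had 13, 430 and 139 calls; they were 0, 34 and 3 with the replicate block (1787 at an unadjusted p below 0.05 for the 0), 50, 8 and 9 with the 4 arrays alone, 181, 1381 and 465 without the filter, and 28 under 2i with an intensity trend. Fewer residual degrees of freedom remain with the block or 4 arrays, yet calls under 2i rose with the 4 arrays alone. Why the counts changed was not tested.

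Leaving out 1 array, with the lone remaining array of its group taken to vary as the rest do, gave 1 to 7, 6 to 7 and 0 to 1 of the 8 probe sets in the 3 comparisons, and 0 to 3, 2 to 3 and 0 to 2 of the 4 pairs. Over all probe sets it gave 44 to 2300, 1201 to 4275 and 0 to 1369 calls, and over all pairs 0 to 50, 8 to 848 and 0 to 382. For MEFs it gave 7 to 8. The difference of Sox2 between 2i iPSCs and ESCs, not called, was -0.19 without Nanog-GFP and 0.06 without EBRTcH3 in place of -0.06. Levels in the lower part of an array, as of Sox2 in untreated 2B1 and 5C5 (39.2 and 25.8 percentiles), limit the size of a fold change. Those near the brightest value, as of Mycn 1425923_at, do so too.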
